A study of Mus musculus with 154 samples.

Results

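Cholesterol synthesis in the mouse liver was followed through 7 genes: Hmgcs1, Idi1, Fdft1, Sqle and Cyp51, which encode enzymes of the pathway, Insig1, which encodes a sterol-regulated inhibitor of it, and Srebf2, which encodes the transcription factor SREBP2. They were chosen by symbol, with earlier results of these data known, as well-known members and targets of the SREBP2 pathway. All 7 were present among the 13289 genes counted. Liver RNA was sequenced from male mice of 24 strains, all 5 weeks old and fasted overnight. The controls were 20 C57BL/6J (B6) mice. In the single chromosome substitution strains (single CSSs, 63 mice of 8 strains, 7 or 8 mice each) 1 copy of chromosome 3, 4, 5, 6, 8, 10, 14 or 17 came from the strain A/J and the rest of the genome from B6. In the double CSSs (71 mice of 15 strains, 3 to 6 mice each) 1 copy of each of 2 such chromosomes came from A/J. The strain names used here give the dam first. Thus (B6.A3 x B6.A5)F1 mice had a B6.A3 dam and a B6.A5 sire and were heterozygous for A/J chromosomes 3 and 5. A whole substituted chromosome carries every A/J variant on it, which limits each strain as a model of any single gene. Mouse numbers below only name animals.

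The liver is a main site of cholesterol synthesis. Acetyl units are built into mevalonate, mevalonate into isoprenoids, and isoprenoids into squalene, which is oxidized and closed into the sterol ring. When sterols in the endoplasmic reticulum are low, SREBP2 is escorted to the Golgi by SCAP, cut by the proteases and enters the nucleus, where it turns on the genes of the pathway and its own gene. When sterols are high, INSIG proteins hold SCAP and SREBP2 back. Fasting is known to lower the activity of this pathway in the liver.

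In their order along the pathway, Hmgcs1 (3-hydroxy-3-methylglutaryl-CoA synthase, chromosome 13, 119690379 to 119708260, plus strand) feeds the step before mevalonate, and Idi1 (isopentenyl diphosphate isomerase, chromosome 13, 8885501 to 8892451, plus strand) interconverts the isoprenoid building blocks. Fdft1 (squalene synthase, chromosome 14, 63145150 to 63179578, minus strand) makes squalene and Sqle (squalene epoxidase, chromosome 15, 59315077 to 59331192, plus strand) oxidizes it. Cyp51 (lanosterol 14-alpha-demethylase, chromosome 5, 4081145 to 4104746, minus strand) acts on the first sterol. Insig1 lies on chromosome 5 (28071363 to 28078662, plus strand) and Srebf2 on chromosome 15 (82147181 to 82205379, plus strand). These positions are whole genes on GRCm38 (mm10), the build the reads were aligned to. An A/J copy of chromosome 5 therefore brings its own alleles of Cyp51 and Insig1 (in cis), and an A/J copy of chromosome 14 its own Fdft1, while the other members are reached in trans. No member lies on any of the other 6 substituted chromosomes.

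The sequences upstream of 4 members are shown because these genes share a regulator and moved together in the results. Idi1 also had an entry, but its stretch before the gene start held no match to the letters below and is not printed. They are RefSeq reference sequence (GRCm38.p6, of B6), printed 5′ to 3′ on the gene's own strand, and each stretch ends before the annotated gene start. Capitals mark matches, on either strand, to TCACCCCA or TCACCTCA (like the sterol regulatory element that SREBP proteins bind), to CACGTG (the E-box), to CCAAT (bound by NF-Y, read ATTGG on the other strand) and to GGGCGG (bound by Sp1, read CCGCCC on the other strand). The stretches are chr13:119690101-119690350 (plus strand) for Hmgcs1, chr5:28071162-28071362 (plus strand) for Insig1, chr5:4104747-4104947 (minus strand) for Cyp51 and chr15:82147019-82147180 (plus strand) for Srebf2.
Hmgcs1: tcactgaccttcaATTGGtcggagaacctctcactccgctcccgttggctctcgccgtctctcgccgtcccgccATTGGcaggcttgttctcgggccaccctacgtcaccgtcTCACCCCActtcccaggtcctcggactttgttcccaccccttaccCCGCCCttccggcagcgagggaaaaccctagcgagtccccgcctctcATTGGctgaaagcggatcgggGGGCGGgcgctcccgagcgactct
Insig1: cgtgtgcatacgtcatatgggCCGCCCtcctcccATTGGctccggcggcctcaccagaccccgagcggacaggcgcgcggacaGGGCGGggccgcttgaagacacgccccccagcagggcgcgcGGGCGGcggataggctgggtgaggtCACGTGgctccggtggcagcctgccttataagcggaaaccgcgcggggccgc
Cyp51: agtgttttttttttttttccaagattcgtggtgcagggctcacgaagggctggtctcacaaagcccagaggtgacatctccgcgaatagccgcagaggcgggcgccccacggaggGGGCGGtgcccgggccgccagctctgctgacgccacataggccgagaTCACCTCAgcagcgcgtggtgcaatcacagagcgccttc
Srebf2: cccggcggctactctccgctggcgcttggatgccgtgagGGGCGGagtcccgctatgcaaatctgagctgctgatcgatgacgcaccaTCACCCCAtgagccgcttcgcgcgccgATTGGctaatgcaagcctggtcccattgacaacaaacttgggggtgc

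Within windows of 300 bases (250 before to 50 after the RefSeq start), TCACCCCA occurred once in Hmgcs1 and once in Srebf2. This sequence was found in 1.56% of 32851 mouse promoter windows of the same length. TCACCTCA occurred in Cyp51, 88 bases before the start (1.17% of windows), and CACGTG in Insig1 (7.15%). CCAAT and GGGCGG were present in the windows of all 5 members that had an entry, which adds Idi1 to those printed, against 37.4% and 35.7% of all windows. The letters were chosen with these sequences in view, and a match describes the sequence and is not evidence of binding. For Sqle and Fdft1 no promoter sequence is shown.

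Libraries held 4638701 to 30465477 counted reads (median 1.61164e+07), and the precision of a low gene depends on that depth. Within strains, the mean log2 level of the 7 members varied little with the log2 total (Pearson r = 0.072, Spearman rho = 0.091 over all mice, a description). The summed level of 6 hepatocyte markers was 87361 to 142551 CPM (read counts scaled to library size) in B6 mice and no marker was at 0 in all mice. In whole liver, fewer cells of a type and less RNA per cell cannot be told apart. Y-linked transcripts were near absent (2.94 CPM summed, against 228 to 432 in the other mice) in (B6.A14 x B6.A4)F1 mouse 3, which goes against its description as male, and the 3 member calls that were lost without it are named with their results. The strain label of (B6.A3 x B6.A5)F1 mouse 1 lacks the F1 suffix that the other 4 carry, and results on that strain are also given without it.

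Between genes, levels were compared per kilobase of exon. In B6 mice, Insig1 (22.99 ± 8.26 CPM per kb, mean ± SD, n = 20) and Hmgcs1 (18.6 ± 3.85) were the highest of the members. Idi1 (7.27 ± 3.004) and Fdft1 (7.24 ± 1.20) followed, then Cyp51 (4.91 ± 2.12) and Srebf2 (1.93 ± 0.352). Sqle was the lowest at 0.564 ± 0.364 CPM per kb. Its counts were 4 to 482 reads (median 40.5), and 147 mice had at least 15, so counting error is larger for Sqle than for the other members. The members also differed in how much they varied among genetically identical B6 mice. Sqle ranged 10.96-fold, from 0.939 to 10.3 CPM, whereas Fdft1 ranged 1.94-fold, from 19.98 to 38.8 CPM.

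**Figure D1:**
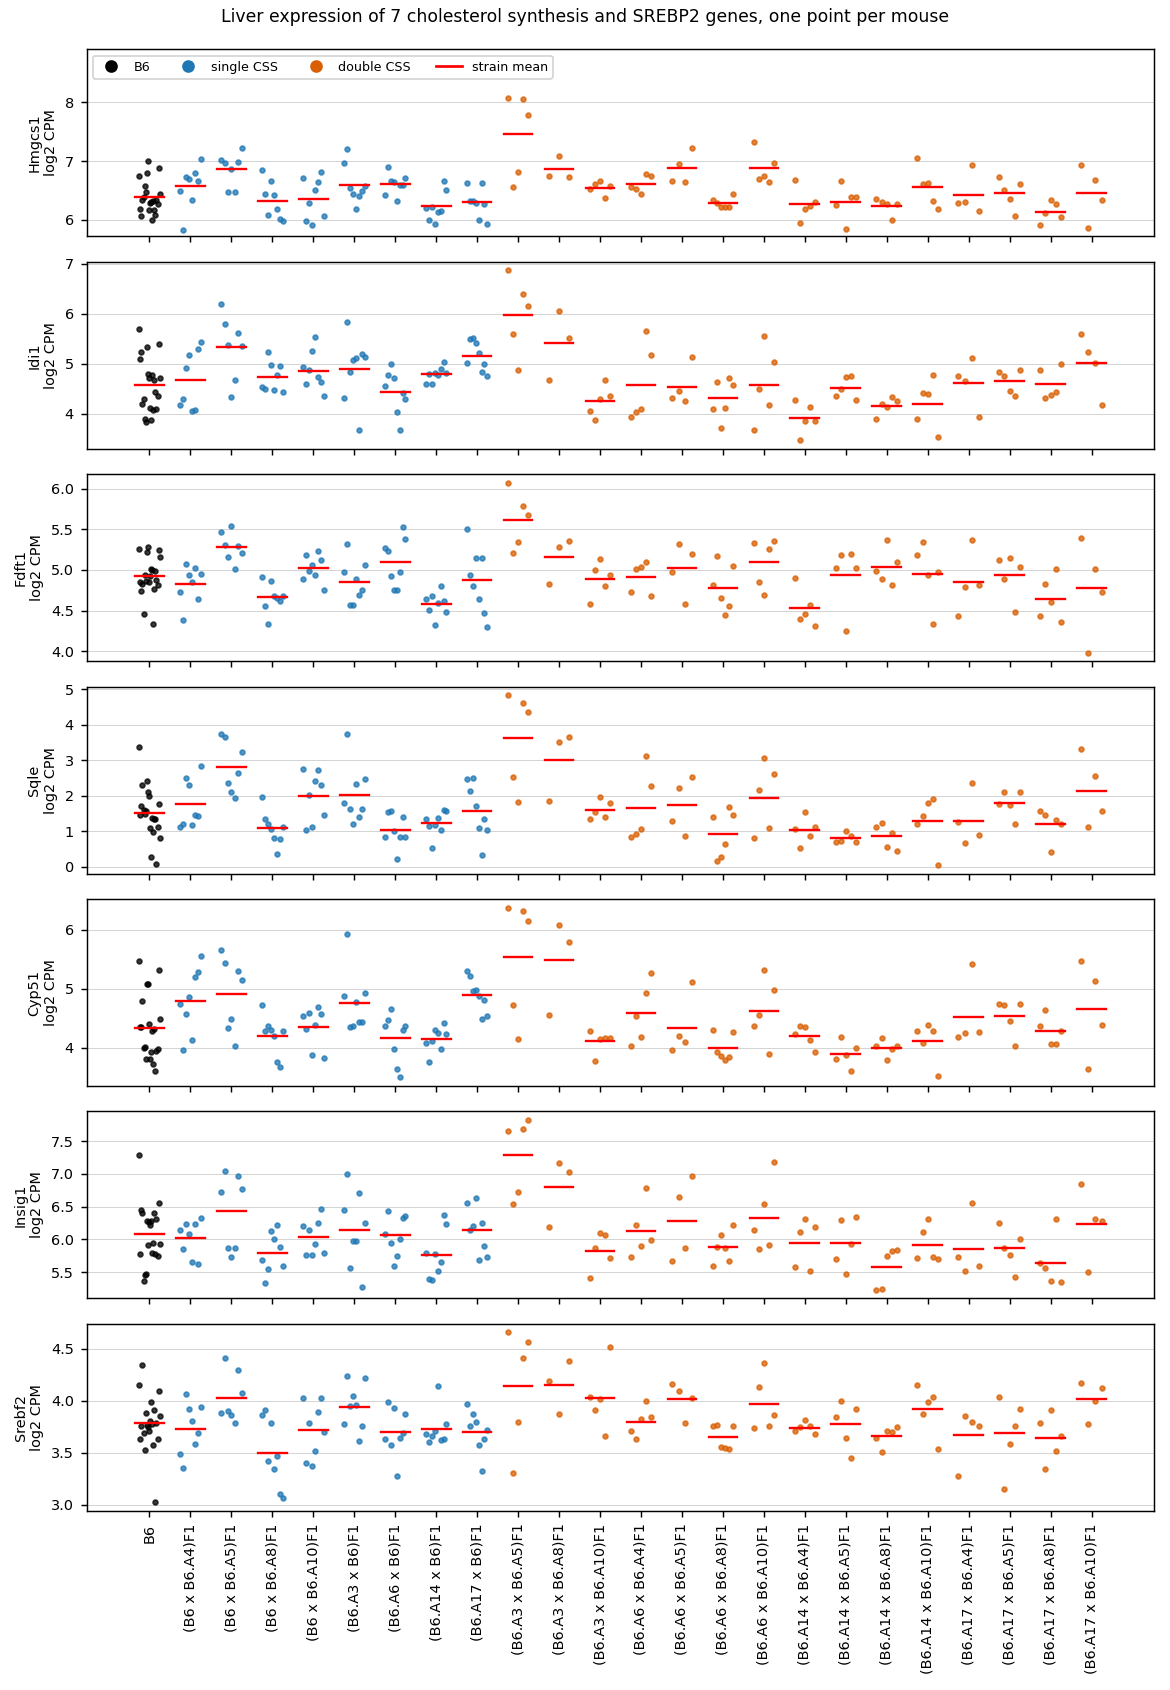
Liver level of the 7 members in log2 CPM (vertical axes, 1 panel per gene, a log scale with a prior count of 2) for each mouse, by strain. Points are mice (black B6, blue single CSS, orange double CSS) and red lines are strain means. (B6.A3 x B6.A5)F1 has the highest strain mean for 6 genes, with 3 of its 5 mice well above the rest, and B6 points of Sqle are spread over 10.96-fold.

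Strain explained more of the variance of the members than of most genes. The share of the variance of log2 CPM between strains was 48.3% for Sqle, 47.9% for Hmgcs1, 43.9% for Idi1, 43.0% for Cyp51, 40.9% for Fdft1, 40.5% for Insig1 and 31.7% for Srebf2, against a median of 25.9% over all genes. In a joint test of all 23 strain effects by edgeR's quasi-likelihood F-test at a false discovery rate (FDR) of 0.05, all 7 members differed between strains, as did 51.4% of all genes. A joint test of the 15 interactions called 6 members, with 27.4% of all genes called. The exception was Srebf2 (FDR = 0.399). The range of the strain means, on the log2 scale, ran from 0.655 for Srebf2 to 2.84 for Sqle.

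The highest strain was (B6.A3 x B6.A5)F1 for 6 members, and (B6.A3 x B6.A8)F1 for Srebf2. The lowest strains all carried A/J chromosome 14 or 8. They were (B6.A14 x B6.A5)F1 for Sqle and Cyp51, (B6.A14 x B6.A4)F1 for Idi1 and Fdft1, (B6.A14 x B6.A8)F1 for Insig1, (B6.A17 x B6.A8)F1 for Hmgcs1 and (B6 x B6.A8)F1 for Srebf2. For every member the step between neighbouring strains in the order was smaller than the larger of their SDs, so that no neighbours were separated beyond their spread. In the plot of the members by strain this appears as a continuous order with one strain at its top.

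The effect of each substituted chromosome alone (the main effect) was estimated in 1 model of all mice, with the 15 interactions and 5 surrogate variables, which stand for unrecorded variation. Of the 56 tests of members over 8 chromosomes, 3 passed (5.36%, against 11.1% of the tests over all genes). Chromosome 5 gave 2 of them.

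Sqle and Cyp51 were called higher with an A/J copy of chromosome 5. In (B6 x B6.A5)F1 mice Sqle was 3.70 CPM in the lowest, 6.08 in the median and 13.2 in the highest of 7 mice, and in B6 mice 0.939, 2.65 and 10.3. The groups overlapped, but all 7 mice lay above the B6 median. Sqle rose by 1.25 on the log2 scale (SE 0.29, 2.39-fold, FDR = 0.0236). Cyp51, on the substituted chromosome itself, was 16.3, 35.4 and 50.3 CPM, against 12.01, 19.7 and 44.2 CPM in B6, again with overlap. It rose by 0.56 (SE 0.19, FDR = 0.0451), a call lost in 5 of 11 alternatives (FDR up to 0.175), among them the fit without (B6.A14 x B6.A4)F1 mouse 3 (0.54, FDR = 0.0634). The 2 calls among 7 members compare with 0.768% of all genes called for this chromosome in either direction and 0.452% called higher.

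The other 5 members had positive estimates that did not pass. Idi1 was at 0.79 (SE 0.20) and Hmgcs1 at 0.44 (SE 0.11), both with FDR = 0.0631. Fdft1 (0.34, FDR = 0.114), Insig1 (0.35, in cis, FDR = 0.202) and Srebf2 (0.22, FDR = 0.369) were further from the threshold. All 7 had an unadjusted p under 0.05, as did 1643 of 13289 genes. In (B6 x B6.A5)F1 mice Idi1 ranged from 19.95 to 73.5 CPM (median 41.6) and Hmgcs1 from 88.4 to 148.9 CPM (median 124.4). Every one of the 7 mice was above the B6 median of Hmgcs1 (80.2 CPM), while the ranges of both genes overlapped those of B6.

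The (B6 x B6.A5)F1 mice were uneven among themselves. In mice 1 to 7, in that order, Sqle was at 13.2, 12.5, 4.97, 4.16, 3.70, 6.08 and 9.23 CPM. Cyp51 was at 50.3, 43.1, 20.04, 22.2, 16.3, 39.2 and 35.4 CPM. Mice 3, 4 and 5 were the lowest for both genes, but not for every member, since mouse 4 had the highest Fdft1 of the 7 (46.5 CPM).

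The single call for another chromosome was Cyp51 for chromosome 4. In (B6 x B6.A4)F1 mice it was 15.5 CPM in the lowest, 27.7 in the median and 47.0 in the highest of 8, which overlapped B6. It rose by 0.61 (SE 0.19, FDR = 0.0189), and chromosome 4 altered 13.5% of all genes. This call was lost in 4 of 11 alternatives, with the estimate down to 0.35 (FDR = 0.208) when only genes with 15 counts in every mouse were kept. For chromosomes 3, 6, 8, 10, 14 and 17 no member passed. In those comparisons estimates ran from −0.69 to 0.58, and 6 of the member tests had an unadjusted p under 0.05 in edgeR. The share of all genes with such a p ran from 17.7% (chromosome 3) to 39.5% (chromosome 8). DESeq2 likewise called no member for any of these 6 chromosomes. The same chromosomes altered 3.7% (chromosome 3), 8.09% (6), 29.6% (8), 6.64% (10), 22.5% (14) and 3.67% (17) of all genes.

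A few of the estimates that did not pass are given here, chosen after they were seen. Fdft1 was at 0.31 (SE 0.10, FDR = 0.0539) for chromosome 10 and Cyp51 at 0.58 (SE 0.19, FDR = 0.0711) for chromosome 17. Cyp51 was 22.3 CPM in the lowest, 30.2 in the median and 39.5 in the highest of 8 (B6.A17 x B6)F1 mice, so that all 8 were above the B6 median of 19.7 CPM and all were within the B6 range. Idi1 was at 0.50 for chromosome 17 (FDR = 0.158). Hmgcs1 was at 0.29 for chromosome 4 (FDR = 0.0796). Srebf2 had an unadjusted p under 0.05 for chromosome 5 alone among the 8.

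Of the 10 calls of members in double CSSs against B6, 7 were in mice with A/J copies of chromosomes 3 and 5 together. All 7 members rose in (B6.A3 x B6.A5)F1 mice against B6, from 1.26-fold for Srebf2 to 4.49-fold for Sqle. These are combined differences, the sum of both main effects and the interaction. In the same comparison 13.5% of all genes were called, and 6.63% were called higher.

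The enzymes of the early pathway are given first. Hmgcs1 was at 268.4, 94.4, 113.0, 264.9 and 220.4 CPM in mice 1 to 5, against 63.5 to 127.6 CPM in B6. Mice 1, 4 and 5 were above every B6 mouse and mice 2 and 3 were within the B6 range. Hmgcs1 rose by 0.98 on the log2 scale (SE 0.13, FDR = 2.03e-08). Idi1 was at 116.6, 48.3, 29.2, 83.5 and 71.5 CPM, against 14.02 to 51.6 CPM in B6. The same 3 mice were above all B6 mice. Idi1 rose by 1.41 (SE 0.23, FDR = 3.92e-06).

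At the squalene steps, Fdft1 was at 67.1, 36.7, 40.5, 55.2 and 51.0 CPM, against 19.98 to 38.8 CPM in B6. Here mouse 3 was above B6 as well, so that 4 of the 5 exceeded every control. Fdft1 rose by 0.55 (SE 0.12, FDR = 0.000521). Sqle was at 28.4, 5.64, 3.41, 24.4 and 20.5 CPM, against 0.939 to 10.3 CPM in B6. Mice 1, 4 and 5 again stood above all controls, and Sqle rose by 2.17 (SE 0.32, 4.49-fold, FDR = 2.73e-07). Cyp51 was at 83.1, 26.3, 17.7, 79.5 and 71.0 CPM, against 12.01 to 44.2 CPM in B6, with the same 3 mice on top. It rose by 1.09 (SE 0.21, FDR = 2.99e-05).

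Both regulators were called higher as well. Insig1 was at 201.4, 92.8, 105.3, 206.2 and 226.5 CPM, against 41.1 to 156.5 CPM in B6, and rose by 1.001 (SE 0.18, 2.002-fold, FDR = 9.53e-06). Srebf2 was at 25.1, 9.73, 13.8, 21.1 and 23.5 CPM, against 8.01 to 20.1 CPM in B6, and rose by 0.33 (SE 0.12, FDR = 0.0431). For both genes mice 1, 4 and 5 were above every B6 mouse, and mouse 2 had the lowest Srebf2 level of the strain. The Srebf2 call was lost without mouse 1 (0.23, FDR = 0.229), mouse 4 (0.32, FDR = 0.111) or mouse 5 (0.27, FDR = 0.172). The other 6 calls held when any of the 5 mice was left out.

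**Figure D2:**
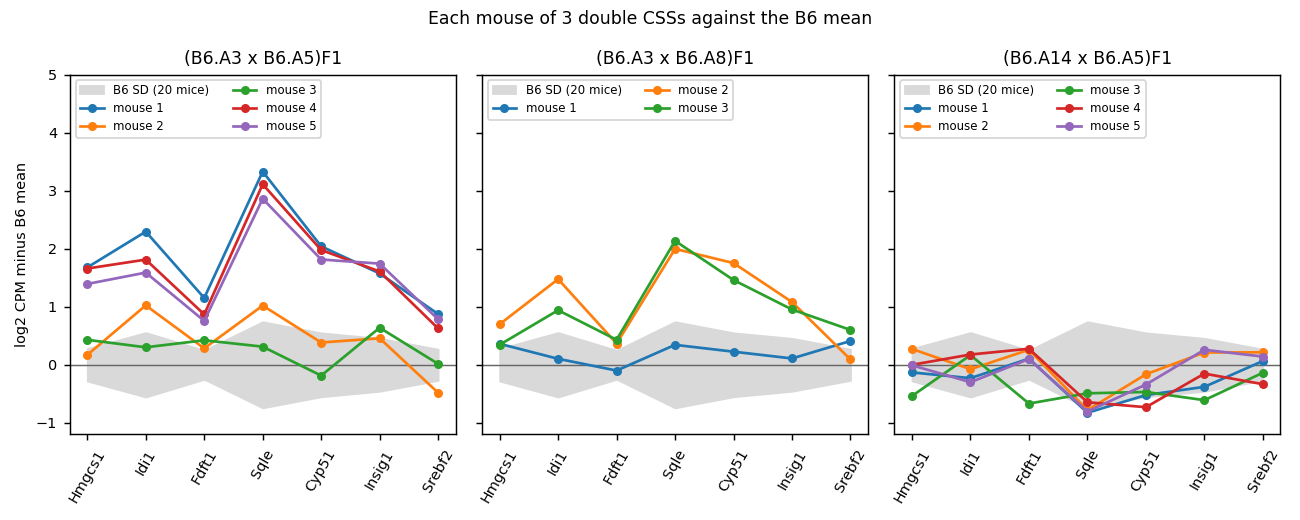
Log2 CPM of the 7 members minus the B6 mean (vertical axis) in each mouse of 3 double CSSs, 1 line per mouse. The grey band is ± 1 SD of 20 B6 mice. In (B6.A3 x B6.A5)F1 mice 1, 4 and 5 run together above the band for every gene while mice 2 and 3 stay near it, in (B6.A3 x B6.A8)F1 mice 2 and 3 are high for Sqle and Cyp51, and in (B6.A14 x B6.A5)F1 the lines lie at or below 0 for Sqle and Cyp51.

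The 5 mice thus did not form a tight group. On the mean log2 difference of the 7 members from B6, mice 1, 4 and 5 ranked 1, 2 and 3 of all mice (1.85, 1.67 and 1.56). Mice 2 and 3 were at 0.408 and 0.276 (ranks 24 and 36), inside the B6 range of −0.378 to 0.912. Library totals were 7836081, 20412004 and 17005337 reads for mice 1, 4 and 5, and 10623702 and 13260738 for mice 2 and 3. The part of depth in this difference was not tested.

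The interaction of chromosomes 3 and 5 did not pass for any member. Estimates ran from −0.03 for Srebf2 to 0.54 for Insig1 (95% confidence interval 0.01 to 1.07), and Insig1 was the only member with an unadjusted p under 0.05 in edgeR. Over all genes no interaction of this pair was called by edgeR (0% of genes, 4.49% with an unadjusted p under 0.05) or by DESeq2 (4.52%). The Sqle interaction was 0.38 with an interval of −0.54 to 1.31, which is too wide to separate a sum of the 2 chromosome effects from more or less than that sum. The main effect of chromosome 3, which did not pass for any member, was estimated at 0.53 for Sqle, 0.45 for Cyp51, 0.36 for Idi1 and 0.25 for Hmgcs1.

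Sqle and Cyp51 also rose in (B6.A3 x B6.A8)F1, a strain of only 3 mice. Sqle was at 3.48, 11.2 and 12.3 CPM and Cyp51 at 23.5, 68.0 and 55.5 CPM. Mice 2 and 3 were above every B6 mouse for both genes, and mouse 1 was within the B6 range. Sqle rose by 1.42 (SE 0.38, FDR = 0.032) and Cyp51 by 1.13 (SE 0.25, FDR = 0.00629), in a comparison that called 1.88% of all genes. All 7 estimates were positive, from 0.22 to 1.42. Both calls were lost without mouse 2 (Sqle 1.20, Cyp51 0.86) or mouse 3 (Sqle 1.07, Cyp51 0.99). This comparison and that of (B6.A3 x B6.A5)F1 share the B6 mice.

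**Figure D3:**
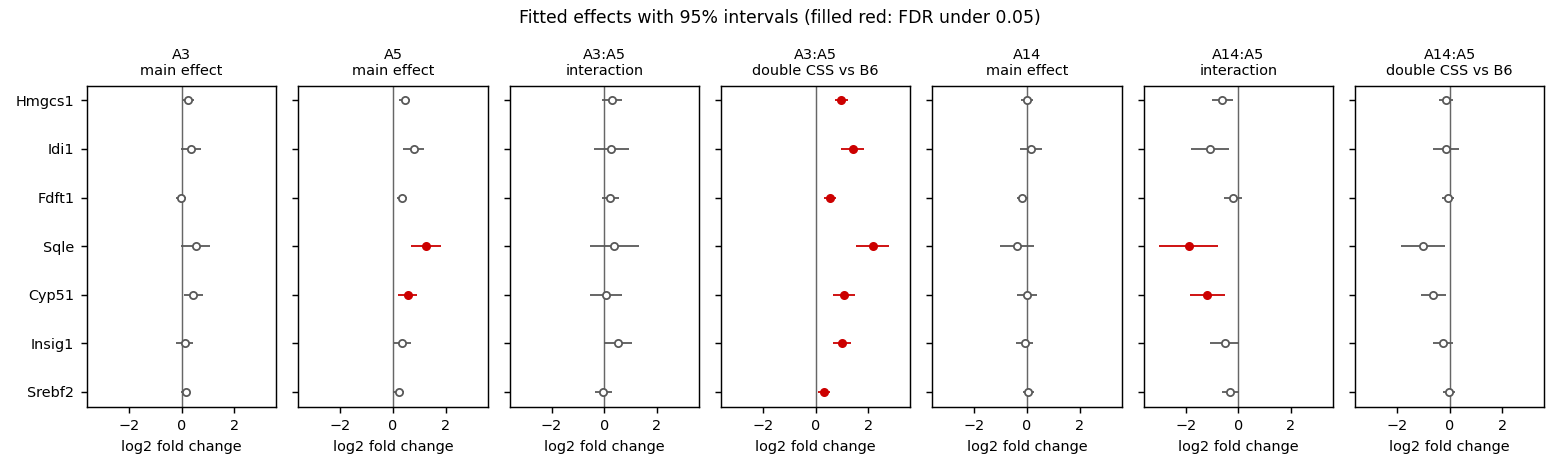
Fitted log2 fold changes of the 7 members (points) with 95% confidence intervals (lines) for 7 contrasts, with called ones (edgeR, FDR under 0.05) in filled red. Sqle and Cyp51 were called for A5, all 7 for the A3:A5 double CSS against B6, none for the A3:A5 interaction, and Sqle and Cyp51 (−1.89 and −1.18) for the A14:A5 interaction.

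The higher expression with chromosome 5 was not seen when chromosome 14 was substituted as well. In (B6.A14 x B6.A5)F1 mice 1 to 5 Sqle was at 1.48, 1.53, 1.90, 1.70 and 1.504 CPM, all below the B6 median of 2.65 and below the lowest (B6 x B6.A5)F1 mouse (3.70). Cyp51 was at 13.98, 17.9, 14.5, 12.1 and 15.9 CPM, also below the B6 median (19.7). In (B6.A14 x B6)F1 mice, with chromosome 14 alone, Sqle was 1.33, 2.28 and 2.90 CPM and Cyp51 13.5, 17.9 and 21.3 CPM in the lowest, median and highest of 8. The chromosome 14 and 5 interaction was −1.89 for Sqle (SE 0.58, FDR = 0.0414) and −1.18 for Cyp51 (SE 0.34, FDR = 0.0289), both called. These 2 calls compare with 4.04% of all genes called and 1.55% called lower.

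Hmgcs1 (−0.61, FDR = 0.0558) and Idi1 (−1.07, FDR = 0.0664) narrowly missed, DESeq2 called 3 members rather than 2, and all 7 estimates were negative. The Sqle call was lost without any one of mice 1, 2, 4 and 5 (FDR = 0.0576 to 0.0800) or without (B6.A14 x B6.A4)F1 mouse 3 (FDR = 0.0543), and the Cyp51 call without mouse 1, 2 or 4 (FDR = 0.0582 to 0.0782). Against B6, no member passed the test in (B6.A14 x B6.A5)F1 mice (Sqle −1.02, FDR = 0.259, and Cyp51 −0.62, FDR = 0.0967).

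Chromosome 5 was combined with 2 further chromosomes, 17 and 6. In (B6.A17 x B6.A5)F1 mice 1 to 5 Sqle was at 3.31, 4.21, 3.22, 2.16 and 4.19 CPM, inside the B6 range. The interaction of chromosomes 17 and 5 was negative for all 7 members, from −1.35 (Sqle, SE 0.54, FDR = 0.412) to −0.35 (Fdft1, FDR = 0.523), with Idi1 at −1.33 (SE 0.36, FDR = 0.244) and Cyp51 at −1.13 (SE 0.33, FDR = 0.150). None was called, although all 7 had an unadjusted p under 0.05 in edgeR and in DESeq2. Of all genes, edgeR called 0 (1239 at an unadjusted p under 0.05) and DESeq2 called 1. In (B6.A6 x B6.A5)F1 mice 1 to 4 Sqle was at 2.30, 4.54, 1.70 and 5.64 CPM. The interactions of chromosomes 6 and 5 ran from −0.68 to −0.01 and none was called. Of all genes, edgeR and DESeq2 both called 0. In edgeR 1 member and 5.68% of all genes had an unadjusted p under 0.05.

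Among the interactions without chromosome 5, only that of chromosomes 14 and 8 gave a member call, for Fdft1 (below). Idi1 was not called in any interaction. The following estimates were picked for their size after they were seen. Chromosomes 3 and 10 gave −1.03 for Sqle (FDR = 0.324), −1.01 for Idi1 (FDR = 0.116) and −0.82 for Cyp51 (FDR = 0.173). Chromosomes 14 and 4 gave −0.88 for Idi1 (FDR = 0.162) and −0.86 for Cyp51 (FDR = 0.125), and chromosomes 17 and 4 gave −0.98 for Cyp51 (FDR = 0.129). In the other direction, chromosomes 3 and 8 gave 1.37 for Sqle (SE 0.56, FDR = 0.108). Over the 13 interactions with no member called, each tested on 7 members, 21 member tests had an unadjusted p under 0.05 in edgeR. In the same interactions the share of all genes with such a p ran from 4.49% (chromosomes 3 and 5) to 36.0% (6 and 8).

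All 4 interactions with chromosome 5 are measured against the same 7 (B6 x B6.A5)F1 mice and the same B6 mice, so an extreme value in those mice enters all of them. The values stand side by side, and whether the interactions differ from each other was not tested. For Sqle the difference from B6 was 1.25 with chromosome 5 alone, 2.17 with chromosome 3, 0.02 with chromosome 6, −1.02 with chromosome 14 and −0.01 with chromosome 17. For Cyp51 it was 0.56, 1.09, −0.13, −0.62 and 0.02 in the same order.

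The remaining interaction called was for Fdft1, with chromosomes 14 and 8. Fdft1 was at 31.6, 29.4, 41.2, 28.0 and 34.0 CPM in (B6.A14 x B6.A8)F1 mice 1 to 5. It was 19.9, 24.2 and 27.7 CPM (lowest, median, highest of 8) with chromosome 14 alone and 20.1, 25.3 and 30.0 CPM with chromosome 8 alone. All 5 double CSS mice were thus above all chromosome 14 mice, and 3 of them above all chromosome 8 mice. The interaction was 0.55 (SE 0.18, in cis, FDR = 0.0103). This pair of chromosomes is the least specific of all, with an interaction called for 32.4% of all genes, so a share of 1 in 7 members is below the background. Markers of several cell types and 7 of 12 circadian clock genes were called in the same contrast, and their part in the Fdft1 result was not tested.

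Fdft1 also fell in (B6.A14 x B6.A4)F1 mice, at 29.6, 20.9, 21.8, 23.6 and 19.7 CPM in mice 1 to 5 against 19.98 to 38.8 CPM in B6. All 5 mice were below the B6 median of 29.8 CPM, and mouse 5 was below every B6 mouse. It fell by 0.35 (FDR = 0.0248), in a comparison that called 13.9% of all genes. The call was lost without mouse 2, 3 or 5, and mouse 3 is the one that lacked Y-linked transcripts. In all, 3 of 105 interaction tests of members passed (2.86%, against 5.96% over all genes) and 10 of 105 differences between double CSSs and B6 (9.52%, against 3.98%). In 12 of the 15 double CSSs no member was called against B6.

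The rest of the pathway was read from a list of 22 cholesterol synthesis enzymes, 5 of which are members. Chromosome 5 alone raised 5 of the 22 and lowered none. Beside Sqle and Cyp51 these were Fdps (farnesyl diphosphate synthase, 1.02, FDR = 0.0289), Msmo1 (a sterol C4 demethylase, 1.004, FDR = 0.00545) and Mvk (mevalonate kinase, on chromosome 5, 0.55, FDR = 0.00174). In (B6.A3 x B6.A5)F1 mice 15 of the 22 cholesterol synthesis enzymes rose against B6 and none fell. The median estimate over the list was 0.50, against −0.005 over all genes.

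The members were not alone in this. Msmo1 rose by 1.83 (SE 0.22), Fdps, on chromosome 3, by 1.73 (SE 0.26), Mvd (mevalonate diphosphate decarboxylase) by 1.37 (SE 0.24) and Nsdhl (a sterol dehydrogenase) by 1.14 (SE 0.17). Msmo1 was at 182.5, 67.1, 51.0, 121.1 and 118.3 CPM in mice 1 to 5, against 18.6 to 47.8 CPM in B6. For Msmo1 all 5 mice were above every B6 mouse, unlike the members. Among the enzymes of the list not called in this comparison were Ebp, Ggps1, Hsd17b7, Lbr and Dhcr7.

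Over all contrasts the 17 cholesterol synthesis enzymes that are not members passed in 13.2% of main effect tests (all genes, 11.1%), 6.67% of interaction tests (5.96%) and 8.63% of differences from B6 (3.98%). The first 2 shares were near those of all genes. Chromosomes 14 and 5 interacted on 3 of the 22, all lower (Sqle, Cyp51 and Msmo1 at −1.27). Chromosomes 14 and 8 interacted on 8 of the 22, in a comparison that called 32.4% of all genes. In (B6.A3 x B6.A8)F1 mice 5 of the 22 rose, the 3 beside Sqle and Cyp51 being Fdps (1.17), Msmo1 (1.12) and Nsdhl (0.77).

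Of 8 other SREBP2 targets measured, 5 rose and 1 fell in (B6.A3 x B6.A5)F1 mice. Among those that rose were Stard4, a sterol carrier (0.81), Rdh11 (0.48) and Tmem97 (0.26). Npc1, which exports cholesterol from lysosomes, fell by 0.38. In the list SREBP processing and sterol sensing, 3 of 12 genes rose, namely Insig1, Srebf2 and Srebf1, which encodes SREBP1 (0.76). The list sterol-activated LXR targets held 8 genes, among them sterol efflux transporters and the genes of the LXR receptors themselves, Nr1h3 and Nr1h2. Of the 8, edgeR called 0 in this comparison (2 at an unadjusted p under 0.05), and DESeq2 also 0 (2). The interaction term of chromosomes 14 and 5 was positive and called for 2 LXR targets, the transporters Abca1 (0.48) and Abcg5 (0.77). Chromosome 14 alone lowered both (−0.29 and −0.49), and neither was called in (B6.A14 x B6.A5)F1 mice against B6.

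Genes of other processes also differed from B6 in (B6.A3 x B6.A5)F1. In the fasting response list 5 of 9 genes fell: Igfbp1 by 1.74, Ppargc1a (on the substituted chromosome 5) by 1.40, Angptl4 by 0.61, Cpt1a by 0.52 and Pck1 by 0.47. Ppargc1a was also called lower with chromosome 3 alone (−0.98, FDR = 0.00109) and was not called with chromosome 5 alone. The mean of the fasting response list, as a log2 difference from B6, was −0.598, −0.997, −0.716, −0.798 and −0.425 in mice 1 to 5, against −0.595 to 0.586 in B6 mice. It was low in mice 2 and 3, in which the members were near B6, as well as in mice 1, 4 and 5. By contrast, the mean of the 17 other enzymes was 0.936, 0.178, 0.216, 0.845 and 0.805, high in the same 3 mice as the members. The part of the fasting state in the members' result was not tested.

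Some cell type markers differed as well. In (B6.A3 x B6.A5)F1 against B6 mice, the summed level of the markers was 83690 to 111064 against 87361 to 142551 CPM for hepatocytes (6 markers), 303.3 to 367.6 against 271.6 to 423.0 CPM for Kupffer cells (5), and 260.2 to 328.9 against 238.6 to 300.2 CPM for liver endothelial cells (5). It was 291.8 to 415.1 against 271.7 to 384.7 CPM for stellate cells (5), 25.6 to 43.8 against 21.3 to 59.7 CPM for cholangiocytes (4), and 35.7 to 92.2 against 41.7 to 168.9 CPM for lymphocytes and blood cells (5). The ranges overlapped for each list and no marker was at 0 in all mice. Of the stellate markers Des (0.64, FDR = 0.00273) and Lrat (0.29) rose, and of the endothelial markers Clec4g, Kdr and Stab2, by 0.34, 0.22 and 0.19. Lrat lies on the substituted chromosome 3 and Kdr on the substituted chromosome 5. Kdr was also called higher with chromosome 5 alone (0.26). Of all genes, 13.5% were called in this strain against B6. Of the hepatocyte markers 1 of 6 was called (Serpina1c, higher), and edgeR called no Kupffer cell, cholangiocyte or blood cell marker (0, also at an unadjusted p under 0.05, and 0 in DESeq2). The mean log2 difference of the lymphocyte and blood cell markers from B6 was −0.680, −0.153, 0.044, −0.623 and −1.09 in mice 1 to 5, against −0.634 to 0.793 in single B6 mice. It was lowest in mice 1, 4 and 5, the mice in which the members were highest. The part of cell composition in the members' result was not tested.

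Genetically identical mice also differed in the members, and in a shared way. After strain means were subtracted, the log2 CPM of the 7 members correlated positively in all 21 pairs over all mice, with a median Pearson r of 0.506 (0.194 to 0.792). The closest pair was Sqle and Cyp51 (r = 0.792, Spearman rho = 0.765). Each was the other's nearest gene among all 13288 others. The weakest pair was Idi1 and Fdft1 (r = 0.194). Genes of 1 mouse share a library, its depth and the time of death, so these values are descriptions. Of the 6 partners of each member, 3 (Fdft1) to 6 (Sqle and Cyp51) lay above the 99th percentile of that member's correlations with all genes.

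**Figure D4:**
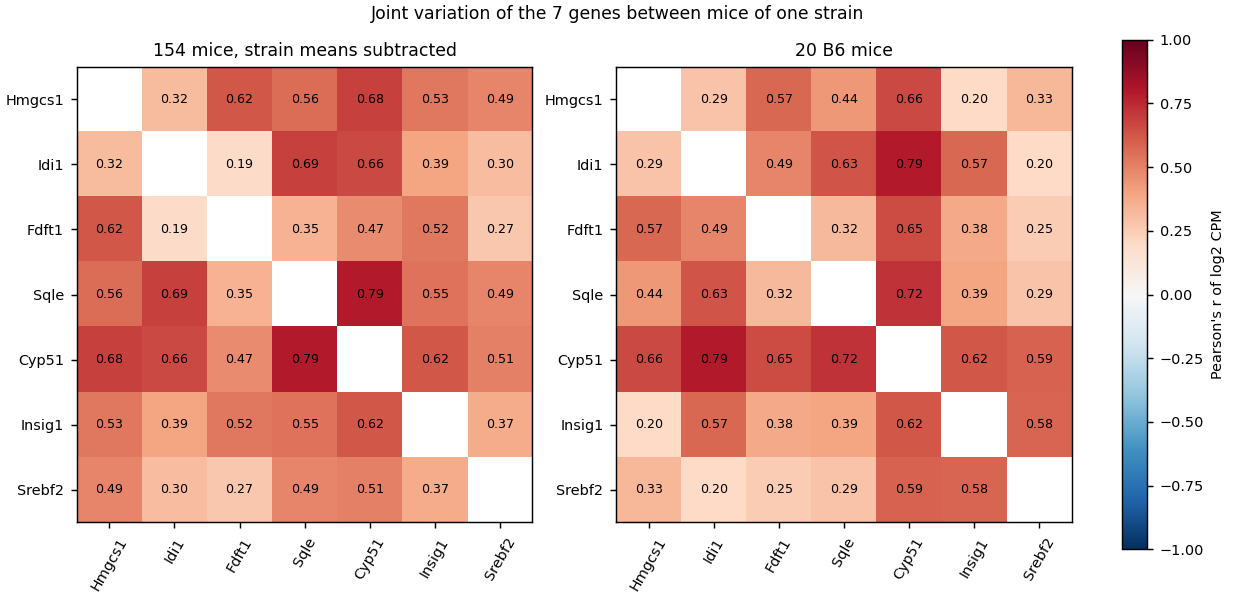
Pearson's r of log2 CPM for each pair of members, over all mice after strain means were subtracted (left) and over the 20 B6 mice (right). The colour scale runs from −1 (blue) to 1 (red), and every cell is positive, from 0.194 to 0.792 on the left and from 0.201 to 0.794 on the right.

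The pattern was present within the controls alone. Over the 20 B6 mice the 21 correlations had a median of 0.491 (0.201 to 0.794), and over the single and double CSSs 0.510 and 0.487. Single strains were less uniform. Of the 21 pairs, 13 were positive in (B6 x B6.A8)F1 (lowest r −0.627) and 13 in (B6.A14 x B6)F1 (lowest −0.299), with 8 mice each. In the other single CSSs 17 to 21 pairs were positive. Within B6, Idi1 and Cyp51 had r = 0.794 (2-sided permutation test with 100000 resamples, p = 5e-05, Benjamini-Hochberg adjusted over the 21 pairs 0.00105) and rho = 0.786 (p = 0.0001, adjusted 0.0021). Without the 2 mice farthest from the median of Idi1, r was 0.663. Sqle and Cyp51 had r = 0.721 (permutation p = 0.00021, adjusted 0.0022) and rho = 0.707 (p = 0.00078, adjusted 0.00819), with r = 0.633 without the 2 farthest mice. Most of the 21 pairs did not pass this test in B6, by r or by rho. By rho the only other pair that passed was Insig1 and Srebf2 (rho = 0.662, permutation test, adjusted 0.0143). Hmgcs1 and Insig1 were among those that did not pass (r = 0.203, permutation p = 0.392, adjusted 0.399). Hmgcs1 and Cyp51 passed by r (permutation test, adjusted 0.0094) but not by rho (adjusted 0.125). Other pairs were less stable. Without the 2 farthest mice r was 0.0696 in place of 0.382 for Insig1 and Fdft1, and −0.0844 in place of 0.201 for Idi1 and Srebf2.

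Among the genes closest to the members as a group, by their mean within-strain r with the 7 among the 9610 genes averaging 2 or more in log2 CPM, were Msmo1 (0.613), Stard4 (0.591), Nsdhl (0.562), Sc5d (0.459) and Cyb5b (0.454). Of these, Msmo1, Nsdhl and Sc5d encode enzymes of the same pathway. Lower values were those of Proz (0.419), Nat8f1 (0.416), Mvk (0.413) and Car3 (0.408). Individual members had partners of their own. The nearest non-member of Hmgcs1 was Cyb5b (0.682), and those of Fdft1 were Adh1 (0.646), Inmt (0.619) and Sord (0.616).

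Some single mice, named here after their values were seen, were high for several members. B6 mouse 1 had the highest level of the 20 controls for 4 members at once, at 10.3 CPM for Sqle, 156.5 for Insig1, 51.6 for Idi1 and 44.2 for Cyp51. Mouse 2 of (B6.A3 x B6)F1 was the highest of its 8 mice for all 7 members, among them Sqle (13.2 CPM), Cyp51 (60.7 CPM) and Idi1 (56.6 CPM). In (B6.A17 x B6.A10)F1, a strain of 4 with no member called against B6, mouse 1 was at 9.82 CPM for Sqle, 44.4 for Cyp51 and 121.8 for Hmgcs1, and mouse 2 at 2.04, 12.4 and 58.5.

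**Figure D5:**
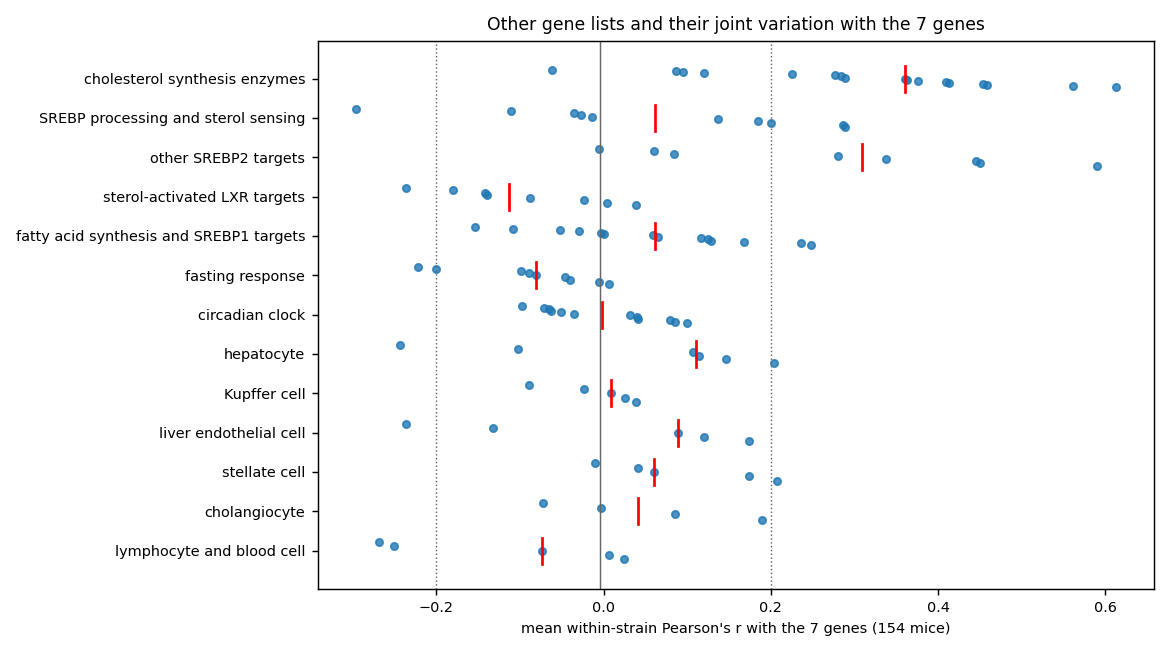
Mean within-strain Pearson's r with the 7 members over all mice (horizontal axis) for the genes of 13 lists, members left out. Points are genes, red ticks list medians, the solid line the median of all genes and the dotted lines −0.2 and 0.2. Of the cholesterol synthesis enzymes 13 of 17 lie right of 0.2 and of the list sterol-activated LXR targets 0 of 8.

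Of the 17 cholesterol synthesis enzymes that are not members, 13 had a mean r with the members above 0.2, compared with 4.01% of all genes. The 4 others were Ggps1, Dhcr7, Ebp and Lbr. In the list other SREBP2 targets 5 of 8 were above 0.2. No gene of the list sterol-activated LXR targets, which includes the receptor genes Nr1h3 and Nr1h2, was (0 of 8, median −0.114). Abca1 was at −0.236. Within the list SREBP processing and sterol sensing, Srebf1 (0.287) and Mbtps1 (0.289) were positive and Insig2, the INSIG gene not counted among the members, was at −0.296. The circadian clock and fasting response lists were near 0 (medians −0.002 and −0.081), with none of their genes above 0.2.

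The members differed in how much of this variation the surrogate variables captured. The 5 variables took up 1.64% of the within-strain variance of Sqle and 2.603% of that of Idi1, against a median of 21.4% over all genes. The share was 16.95% for Cyp51, 17.4% for Srebf2, 22.4% for Insig1, 22.6% for Hmgcs1 and 31.5% for Fdft1. The within-strain SD of Sqle was 0.701 on the log2 scale, higher than in 98.1% of genes, and that of Srebf2 was 0.254, near the median gene (0.227). Among marker lists, the summed level of lymphocyte and blood cell markers correlated with the members' mean at r = −0.309 and of cholangiocyte markers at 0.267 within strains. The markers of each list differed in their mean r with the members. Hbb-bt (−0.250) and Hba-a1 (−0.269), which encode haemoglobin, were negative, while Cd79a (0.006), Ptprc (0.025) and Ms4a1 (−0.073) were near 0. Spp1, at 30.6 CPM in B6 most of the cholangiocyte sum, was at 0.189, with Sox9 at 0.085, Krt7 at −0.003 and Epcam at −0.073. The part of these cells was not tested. The overlaps of members with counted genes on the opposite strand were read as well. Idi1 and Hmgcs1 also overlap opposite-strand genes (Gm48574 and Gm48342), which were not among the genes counted. Akap9, which overlaps Cyp51, had r = −0.096 with it, and Ctsb, which overlaps Fdft1, had r = 0.310, just above the 95th percentile of all genes for Fdft1 (0.308), and was at 380 ± 30.7 CPM in B6 (n = 20) and 377 ± 35.5 CPM in (B6.A3 x B6.A5)F1 mice (n = 5). The part of shared reads was not tested.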

How the data were processed

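Liver RNA of the mice was sequenced as single-end 50 base reads from stranded total RNA libraries. The authors aligned reads with TopHat2 to mm10, realigned the remainder to an individualized A/J genome and deposited raw counts per gene from HTSeq for 13289 genes (4638701 to 30465477 counts per library). The strand setting of the counting and the flow cell of each library were not given in the sources used here, so genes that overlap on opposite strands may share reads.

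Samples were grouped by strain label. The labels name the parents in the opposite order, and the names were turned here to dam first after the authors' breeding scheme. TMM-normalized counts were fitted with edgeR 4.0.16 (quasi-likelihood F-test, R 4.3.3) after the study's own design, which holds 8 main effects, 15 interactions and 5 surrogate variables (sva 3.50.0). P-values were adjusted by Benjamini-Hochberg within each effect, separately for genes on and off the substituted chromosomes, with a threshold of 0.05, and SEs came from the F statistic. Log2 CPM had a prior count of 2. The code was tested on simulated data. DESeq2 1.42.0, other surrogate variables, filters, scalings and thresholds were tried, as were fits that lacked 1 double CSS mouse each. Positions and exon lengths came from GENCODE release 21 on GRCm38. Named genes were the members, called list genes and the 10 genes nearest to the members by mean r; list genes named for lack of a call were chosen after their values were seen. Some genes of the lists are counted but not reported here by name. The members and lists were chosen with earlier results of these data known.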

Additional observations from a re-analysis of the deposited data

Results flagged for a closer look

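Of the combinations of a member and a strain of 4 to 10 mice, 7 held a mouse separated from its strain by Dixon's test (4.55%, where chance gives about 1 in 20). Values are log2 CPM. Cyp51 was 5.93 in (B6.A3 x B6)F1 mouse 2, with the nearest mouse at 4.92, and 5.41 in (B6.A17 x B6.A4)F1 mouse 3 (nearest 4.27). It was 3.77 in (B6.A3 x B6.A10)F1 mouse 2 (nearest 4.15). Srebf2 was 4.14 in (B6.A14 x B6)F1 mouse 5 (nearest 3.77) and 3.28 in (B6.A17 x B6.A4)F1 mouse 1 (nearest 3.76). Fdft1 was 4.25 in (B6.A14 x B6.A5)F1 mouse 3 (nearest 5.02), and Hmgcs1 was 6.01 in (B6.A14 x B6.A8)F1 mouse 4 (nearest 6.27).

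The effect of 1 chromosome differed with the presence of another for 3 member tests, by the edgeR interaction term. These were Sqle (−1.89) and Cyp51 (−1.18) for chromosomes 14 and 5, and Fdft1 (0.55) for chromosomes 14 and 8. The first pair rests on 5 double CSS mice, 7 chromosome 5 mice and 8 chromosome 14 mice.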

How the results depend on the processing

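No direction of a called member reversed under the alternatives run. The 3 main effect calls of members became 1 with 10 surrogate variables and 0 at an FDR of 0.01 (3 to 4 elsewhere). The 3 interaction calls became 0 with 10 surrogate variables, 1 with at least 15 counts in 75% of mice, 5 with at least 15 counts in every mouse (9383 genes, Sqle not among them) and 0 at an FDR of 0.01, and 1 to 4 when each double CSS mouse was left out in turn. The 10 calls of double CSSs against B6 ranged from 7 to 11, and from 8 to 10 with a mouse left out. For the cholesterol synthesis enzymes, 21 main effect calls became 11 with 10 surrogate variables and 11 at an FDR of 0.01, and 20 interaction calls became 33 with 0 surrogate variables, 5 with 10, 12 with the 75% filter and 10 at an FDR of 0.01. The cause was not tested. The joint strain test called 6 to 7 members and the joint interaction test 5 to 6. The A3:A5 calls against B6 were kept for 6 members in every alternative that held the gene, and Srebf2 was not called with 10 surrogate variables (0.24) or at an FDR of 0.01. With 10 surrogate variables Sqle for chromosome 5 was at 0.95 (FDR = 0.102, edgeR), and Fdft1 for chromosomes 14 and 8 at 0.39 (FDR = 0.217). Cyp51 for chromosome 4 was not called with 0 (FDR = 0.141) or 10 surrogate variables (FDR = 0.250), with at least 15 counts in every mouse or at an FDR of 0.01. Cyp51 for chromosome 5 was not called with 0 or 10 surrogate variables, with one adjustment over all genes (FDR = 0.146), at an FDR of 0.01 or without the mouse that lacked Y-linked transcripts (FDR = 0.0634). Without that mouse Sqle was not called for chromosomes 14 and 5 either (FDR = 0.0543). The median of the 21 within-strain correlations was 0.460 to 0.510. Left-out mice were not run for main effects and joint tests. No paired analysis was possible because the labels give no replicate numbers that pair mice across strains. Depth limits Sqle most, with a median of 40.5 counts.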

Other observations

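Srebf1, the gene of SREBP1, was at 55.0, 34.2, 34.4, 57.1 and 61.6 CPM in (B6.A3 x B6.A5)F1 mice 1 to 5, against a B6 median of 23.4 CPM and a range of 15.2 to 63.4 CPM. It was higher in mice 1, 4 and 5 than in mice 2 and 3, the same 3 mice in which the 7 cholesterol synthesis members were highest, but all 5 mice were within the B6 range. The list fatty acid synthesis and SREBP1 targets was mixed in this strain. Of its 14 genes, Mid1ip1 (0.68) and Acss2 (0.32) rose and Fads2 (−0.76) and Elovl5 (−0.81), which desaturate and elongate polyunsaturated fatty acids, fell. Acss2 and Mid1ip1 were also the genes of this list nearest to the members within strains (mean r of 0.248 and 0.236).

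Outside (B6.A3 x B6.A5)F1, high members were found in single mice of several strains. In the order of all mice by the mean of the 7 members, rank 4 was (B6.A3 x B6)F1 mouse 2, ranks 5 and 8 were (B6.A3 x B6.A8)F1 mice 2 and 3, ranks 6, 7, 11 and 12 were (B6 x B6.A5)F1 mice, and rank 9 was B6 mouse 1. Igfbp1, a gene raised by fasting, was at 89.3, 34.3, 67.1, 53.4 and 85.7 CPM in (B6.A3 x B6.A5)F1 mice 1 to 5, against a B6 median of 229 CPM (56.0 to 693.8 CPM).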
